A study of Homo sapiens with 21 samples.

Results

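The 10 genes described here encode 7 matrix metalloproteinases (*MMP1*, *MMP2*, *MMP3*, *MMP9*, *MMP10*, *MMP13* and *MMP14*) and 3 tissue inhibitors of metalloproteinases (*TIMP1*, *TIMP2* and *TIMP3*). They were taken by symbol from the gene family, with earlier results of these data known, out of the 23201 gene symbols measured. All 10 were present. Of these, 7 had a mean value of at least 10 over all libraries and were tested, and the other 3 (*MMP3*, *MMP10* and *MMP13*) were below that filter. The RNA came from HMLE, an immortalized human mammary epithelial cell line made with hTERT and SV40 antigens, during epithelial-to-mesenchymal transition (EMT) induced with TGFβ. The groups were untreated cells (d0) and cells on days 1, 4, 7, 10, 15 and 20 of TGFβ (d1 to d20), each with 3 libraries, 21 in all, from cells seeded at the same density of 200K per well. The comparisons ask how transcription changed as EMT advanced. All treated days share the same 3 untreated libraries, and untreated cells were sampled on d0 alone, so days of TGFβ and days in culture cannot be told apart.

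Matrix metalloproteinases are zinc-dependent endopeptidases that cut collagens, laminins and other matrix proteins, and most are secreted as inactive proenzymes that are activated by removal of a propeptide. TIMPs are small secreted proteins that bind the active site of the enzymes. MMP14, anchored in the cell membrane, activates proMMP2 in a complex that includes TIMP2, so enzyme and inhibitor genes are usually read side by side. In mammary epithelium the family is known for remodelling the basement membrane during branching, involution and tumour invasion, and several members are classical TGFβ-responsive genes.

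The values are normalised read counts, meaning reads divided by a size factor for each library. Whole reads could be recovered from 100% of the values, and each library held 18847917 to 22667754 of them. Values of 3 reads or fewer are called the floor here, which is 2.54 to 3.18 normalised reads depending on the library and covers counting error only. Outside d7, mates of a timepoint were 0.21 to 0.24 apart (root mean square difference of log2 values). The third d7 library was 0.47 and 0.46 from its mates and lay nearer to the d4 mean (0.427) than to the mean of the other d7 libraries (0.451), whereas 20 of the 21 libraries were nearest to their own timepoint. Results on d7 are therefore given with and without it. The basal mammary epithelial markers *KRT5*, *KRT14*, *TP63*, *ITGA6* and *CDH3* were all detected, with a summed value of 207247 to 534135 in every library. The leukocyte markers summed to 354 to 834, mostly from *CD68*, whereas *PTPRC* and *CD3E* were at the floor in every library, and the erythroid markers summed to at most 4.08. Endothelial markers summed to 22.9 to 290, of which *CDH5* was at the floor in every library and *KDR* made up most of the higher sums.

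Promoters are shown for the members that RefSeq's table for GRCh38.p14 holds, because promoter elements vary within the family. Stromelysins and collagenases are known for an AP-1 site and a TATA box close to the start. *MMP14* and the TIMP genes are known for GC boxes, which need not be their only elements. Of the 10 members, 4 matched. Each line gives the 250 bases before the transcription start, 5′ to 3′ on the strand of the gene, and capitals mark matches on either strand to the AP-1 motif TGANTCA, the GC box GGGCGG or the TATA motif TATAAA. The regions are chr11:102780629-102780878 on the minus strand for *MMP10*, and on the plus strand chr14:22836335-22836584 for *MMP14*, chrX:47582186-47582435 for *TIMP1* and chr22:32801455-32801704 for *TIMP3*.
*MMP10*: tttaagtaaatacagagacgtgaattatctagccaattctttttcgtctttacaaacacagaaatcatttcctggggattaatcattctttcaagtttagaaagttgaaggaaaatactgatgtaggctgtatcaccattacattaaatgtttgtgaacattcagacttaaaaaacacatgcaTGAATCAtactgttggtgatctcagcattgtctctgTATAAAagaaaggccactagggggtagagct
*MMP14*: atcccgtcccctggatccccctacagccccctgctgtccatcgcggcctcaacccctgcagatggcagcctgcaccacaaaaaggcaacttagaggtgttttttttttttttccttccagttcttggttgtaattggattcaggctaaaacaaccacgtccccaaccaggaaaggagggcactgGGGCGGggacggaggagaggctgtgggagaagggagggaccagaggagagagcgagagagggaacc
*TIMP1*: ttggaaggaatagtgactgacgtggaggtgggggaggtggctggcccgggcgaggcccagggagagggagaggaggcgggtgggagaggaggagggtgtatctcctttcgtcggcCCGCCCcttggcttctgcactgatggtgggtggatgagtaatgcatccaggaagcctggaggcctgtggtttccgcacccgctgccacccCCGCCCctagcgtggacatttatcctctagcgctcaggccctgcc
*TIMP3*: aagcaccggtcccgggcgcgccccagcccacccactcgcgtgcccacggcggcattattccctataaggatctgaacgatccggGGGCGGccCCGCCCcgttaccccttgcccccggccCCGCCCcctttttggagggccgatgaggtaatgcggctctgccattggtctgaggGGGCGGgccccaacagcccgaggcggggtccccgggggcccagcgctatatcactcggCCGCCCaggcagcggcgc

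The *MMP10* promoter held the AP-1 motif, as TGAATCA starting 67 bases before the start, and a TATA motif starting 31 bases before it. Of all 35116 promoters in the table, 6.57% held the AP-1 motif and 10.7% the TATA motif in the same window. The GC box was found 1 time in the *MMP14* promoter, 2 times in that of *TIMP1* and 5 times in that of *TIMP3*, against 42.6% of all promoters with at least 1 match. GC content was 34.4% for *MMP10*, 56.8% for *MMP14*, 64.8% for *TIMP1* and 72.4% for *TIMP3*. These matches describe the letters in the window only, and AP-1 sites spelled otherwise than TGANTCA were not searched for.

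Genes of both classes rose during TGFβ treatment, but by different amounts and on different days. *MMP14*, *MMP2* and *MMP9* exceeded untreated cells on all 6 days of TGFβ, with *MMP9* rising 207.5-fold on d4, *MMP2* 38.8-fold on d15 and *MMP14* 5.72-fold on d4. *TIMP2* and *TIMP3* were called on some days and not on others, and *TIMP1* changed less than 2-fold on every day. *MMP1* was low on every day and at the floor in all 3 libraries of d15, and *MMP13* had at most 6 reads in any library. In bulk libraries, fewer cells expressing a gene and less RNA per cell cannot be told apart.

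Calls required a 2-fold change or more together with a Benjamini-Hochberg adjusted p below 0.05 in limma's test. On d1, 5 of the 7 members tested were higher and the other 2 were not called, where 6.47% of the 13343 genes tested were higher and 3.87% lower. On d4, 5 were higher, beside 9.68% of all genes higher and 5.03% lower. On d7, 6 were higher, with or without the third d7 library, beside 8.79% higher and 2.93% lower among all genes. On d10, 4 were higher, beside 6.94% higher and 7.34% lower. On d15, 5 were higher and 1 lower, beside 11.7% higher and 8.66% lower. On d20, 5 were higher, beside 7.51% higher and 4.72% lower. The members are a small part of the file, and the 7 tested had to pass a filter on their mean value, so these counts are read as a description beside the background. The median log2 fold change of the members tested lay between 1.48 on d1 and 2.05 on d20. On d1 and d10 it was the value of *MMP1* itself (1.48 and 1.93). With a mean of 5.84 on d0, *MMP1* passed the filter only through treated days. The median of all genes tested was at most 0.03 in size on each day. With all library totals made equal, the median of all genes moved to between -0.20 and -0.14, and the genes called went from 863 higher and 517 lower to 665 and 733 on d1, from 1292 and 671 to 980 and 1047 on d4, and from 1173 and 391 to 907 and 624 on d7. On d10 they went from 926 and 979 to 721 and 1349, on d15 from 1560 and 1155 to 1266 and 1550, and on d20 from 1002 and 630 to 811 and 894.

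**Figure D1:**
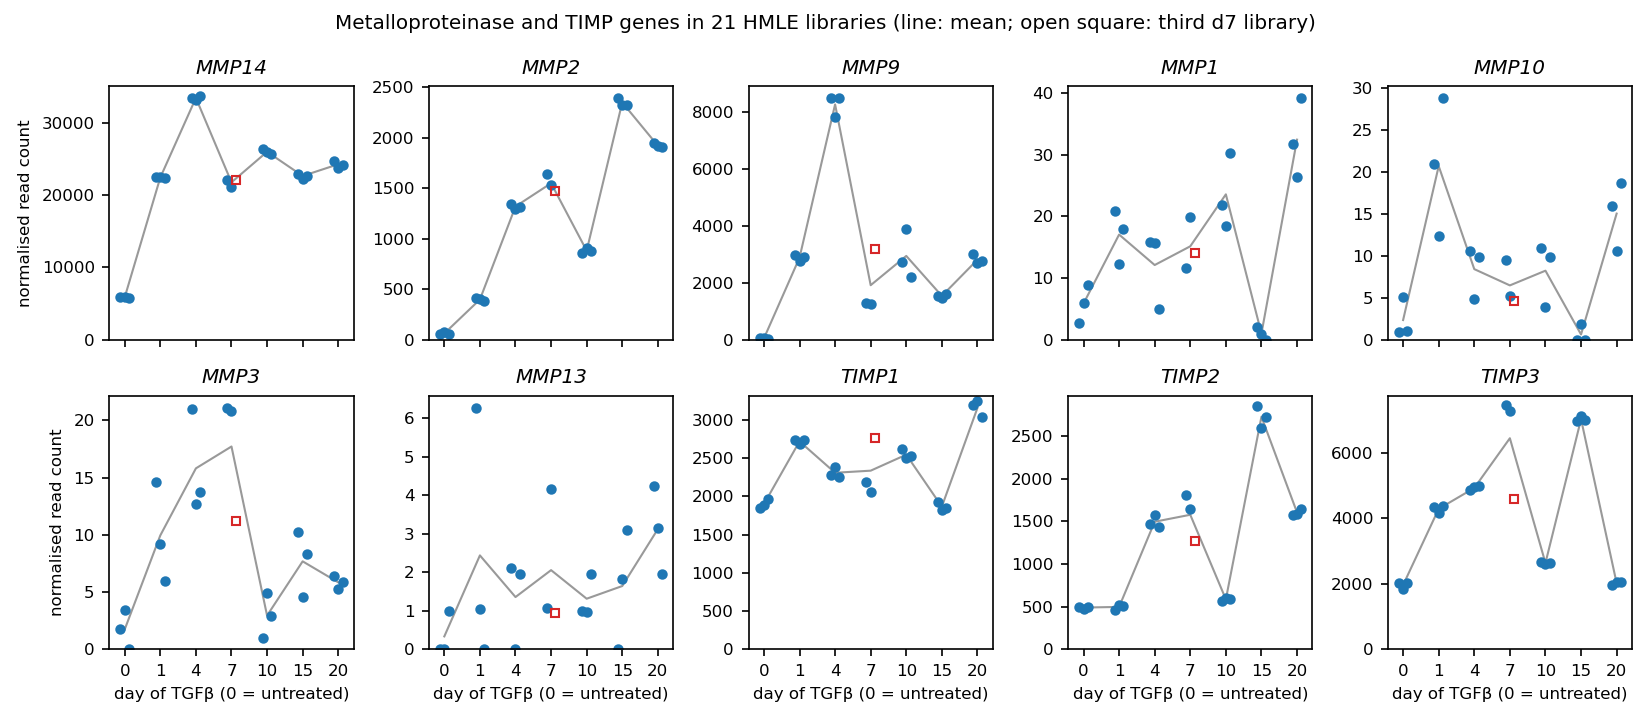
Normalised read counts of the 10 members (y axis, linear, starting at 0) in the 21 HMLE libraries by day of TGFβ (x axis, 0 is untreated). Points are libraries, lines join the means of 3 libraries and the open square is the third d7 library, which stands apart from its mates for *MMP9* (3189 against 1280.1 and 1259) and *TIMP3* (4609 against 7481 and 7279).

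*MMP14*, the membrane-anchored collagenase that activates proMMP2, had the highest level per kilobase among the 7 metalloproteinases on every day. The untreated libraries had 5883, 5924 and 5759 normalised reads, and the d1 libraries had 22473, 22453 and 22420.2. The d1 level already lay within the range of the d7 to d20 libraries, and the libraries of each group lay close together. On d4 the values were 33464, 33221 and 33726, and on d7 they were 22162, 21075.5 and 22103. On d10 they were 26386, 25925 and 25729.9, on d15 22981, 22291 and 22709, and on d20 24794, 23822 and 24235. None of the treated libraries overlapped the untreated ones. The log2 fold change from d0 was 1.94 on d1, 2.51 on d4, 1.89 on d7, 2.15 on d10, 1.95 on d15 and 2.05 on d20 (standard error 0.03 each, largest limma adjusted p = 5.48e-22). In order of level, d4 was highest, followed by d10, d20, d15, d1 and d7. Here d15 and d1 were not separated (limma adjusted p = 0.700), and neither were d1 and d7 (0.218), while each other neighbouring pair in that order had an adjusted p of at most 0.0119.

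*MMP2* encodes gelatinase A, which degrades denatured collagen and type IV collagen of the basement membrane. In untreated cells its values were 59.6, 71.3 and 50.46, and on d1 they were 413, 398 and 379. On d4 they were 1342, 1295 and 1317, and on d7 1637, 1533 and 1475. The rise was thus more gradual than that of *MMP14*, with a further step between d1 and d4. On d10 the 3 libraries had 853, 908 and 880.05, below every d4 and d7 library. On d15 they had 2394, 2327 and 2323.5, and on d20 1944, 1912 and 1905. The groups did not overlap at any neighbouring pair of levels, which ran from d0 through d1, d10, d4, d7 and d20 to d15. The log2 fold change from d0 was 2.71 on d1, 4.44 on d4, 4.67 on d7, 3.86 on d10, 5.27 on d15 and 4.98 on d20 (standard error 0.08 each, largest limma adjusted p = 1.00e-17). Along the course *MMP2* rose by 1.73 on the log2 scale from d1 to d4 and by 1.42 from d10 to d15 (limma adjusted p = 3.02e-13 and 3.74e-13). The difference from d7 to d10 was -0.81 (adjusted p = 6.67e-09), under the 2-fold limit.

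*MMP9* encodes gelatinase B, the other type IV collagenase. It was low in untreated cells, at 39.2, 46.7 and 33.6, and reached 2968, 2769 and 2886 on d1. On d4 the values were 8487, 7824 and 8478, the highest of the time course and above every other library. All later values were lower, and the libraries of d7 and d10 spread most. The d7 libraries had 1280.1, 1259 and 3189, with the third above both of the others, and the d10 libraries had 2729.8, 3899 and 2186. On d15 the values were 1514, 1473 and 1611, and on d20 2991, 2673 and 2752.

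Relative to d0, the log2 fold change of *MMP9* was 6.15 on d1, 7.67 on d4, 5.42 on d7, 6.14 on d10, 5.24 on d15 and 6.11 on d20 (standard error 0.23 each, largest limma adjusted p = 1.53e-14). From d1 to d4 it rose by 1.52 on the log2 scale (adjusted p = 8.78e-06, limma), and from d4 to d7 it fell by 2.26 (adjusted p = 1.16e-07, limma), a log2 difference of -2.7002 without the third d7 library. Below d4 the order of levels was d10, d1, d20, d7 and d15. Without the third d7 library the d7 mean was 1269.75, below every d15 library, so that d7 was then the lowest treated day. Among these d10, d1 and d20 were not separated from their neighbours (limma adjusted p = 0.981 and 0.916), and neither were d7 and d15 (0.553). The step from d7 to d10 was not called with all libraries (log2 difference 0.73), and without the third d7 library it was a rise of 1.17 (adjusted p = 2.15e-12, limma). In the same way the step from d10 to d15, -0.90 with all libraries, passed the 2-fold limit at -1.09 without the third d10 library.

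*MMP1* encodes interstitial collagenase, and its values were low at every timepoint. The untreated libraries had 2.67, 5.94 and 8.90 (3, 7 and 9 reads), and the d1 libraries had 20.9, 12.3 and 17.9. On d4 the values were 15.8, 15.6 and 4.90, overlapping the untreated range, and on d7 11.6, 19.8 and 13.96. On d10 they were 21.9, 18.5 and 30.3, and on d20 31.8, 26.3 and 39.2. On d15, in contrast, the libraries had 2.04, 0.90 and 0, or 3 reads in all, each at the floor. The log2 fold change from d0 was 1.48 on d1, 0.90 on d4 (not called, limma adjusted p = 0.073), 1.32 on d7, 1.93 on d10, -1.82 on d15 and 2.39 on d20 (standard error 0.44 each). These calls rest on few reads: d1 and d7 were no longer called when the first untreated library was left out (adjusted p = 0.0538 and 0.0882, limma), d7 also without its second library (0.0541), and d4 was called without the third untreated or the third d4 library.

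Between d10 and d15 *MMP1* fell by 3.75 on the log2 scale, and between d15 and d20 it rose by 4.20 (limma adjusted p = 1.05e-07 and 2.58e-08). Since the d15 libraries held 3 reads together, the ratio of d20 to d15 was 33.1 with an exact 95% counting interval of 11.004 to 164, and that of d0 to d15 was 5.83, with an interval of 1.72 to 30.8. The other levels of *MMP1* were not separated between neighbours in the order d0, d4, d7, d1, d10 and d20 (smallest limma adjusted p = 0.073).

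*MMP10*, *MMP3* and *MMP13* encode stromelysin 2, stromelysin 1 and collagenase 3, and none passed the filter. *MMP10* had 0.89, 5.09 and 0.99 in untreated cells and 20.9, 12.3 and 28.8 on d1, with no overlap. It had 10.5, 4.87 and 9.79 on d4, 9.50, 5.21 and 4.65 on d7, and 10.95, 3.89 and 9.78 on d10. As with *MMP1*, the d15 libraries were at the floor, with 0, 1.81 and 0, and the d20 libraries were above it, with 15.9, 10.5 and 18.6. The ratio of d20 to d15 was 23.0, with an exact 95% counting interval of 6.01 to 196 on 44 and 2 reads. *MMP3* followed another course, with 1.78, 3.39 and 0 in untreated cells, 14.6, 9.23 and 5.95 on d1, 21.03, 12.7 and 13.7 on d4 and 21.1, 20.9 and 11.2 on d7. Its values were 1.00, 4.86 and 2.93 on d10, 10.2, 4.52 and 8.29 on d15 and 6.36, 5.26 and 5.88 on d20. *MMP13* had at most 6 reads in any library, with 1 read over the 3 untreated libraries and 9 over those of d20 (ratio 10.2, exact 95% counting interval 1.42 to 448). Reads of *MMP3* and *MMP10*, which are close paralogs, can be shared between them.

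In a fit with no filter on low values, *MMP10* was higher by 2.86 on the log2 scale on d1 and by 2.46 on d20 (limma adjusted p = 0.000101 and 0.000417). It was also higher on d4, d7 and d10, by 1.66, 1.34 and 1.59 (limma adjusted p = 0.00901, 0.0360 and 0.0129). On d15 it was not called against d0 (0.101). In that fit *MMP3* was higher by 2.83 on d4 and 2.97 on d7 (adjusted p = 4.01e-05 and 2.83e-05, limma) and lower on d10 than on d7 by -2.33 (0.000357). *MMP3* was also higher on d1, d15 and d20, by 2.17, 1.85 and 1.57 (limma adjusted p = 0.00101, 0.00253 and 0.0117). On d10 it was not called against d0 (0.311). *MMP10* was lower on d15 than on d10 by -2.60 (limma adjusted p = 0.000142), and *MMP13* was higher on d20 than on d0 by 1.67 (0.0357). With counts this low, the fitted values depend on the pseudocount of 1 added before taking logarithms.

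Among the inhibitors, *TIMP1* varied least. TIMP1 inhibits most secreted metalloproteinases and is a stable complex partner of proMMP9. The untreated libraries had 1845, 1886 and 1967 normalised reads, and the d1 libraries had 2738, 2686 and 2740.0. On d4 the values were 2282, 2392 and 2257, and on d7 2187, 2055 and 2772, the third being highest. On d10 they were 2621, 2497 and 2524, on d15 1924, 1827 and 1849, and on d20 3193, 3251 and 3035. The d15 libraries overlapped the untreated ones, and those of each other treated day lay above them. The log2 fold change from d0 was 0.52 on d1, 0.28 on d4, 0.29 on d7, 0.42 on d10 and 0.73 on d20, with limma adjusted p of at most 0.000920 but less than 2-fold, and -0.02 on d15 (adjusted p = 0.752). With equal library totals, d4 and d7 were 0.09 and 0.10 (adjusted p = 0.277 and 0.225, limma), and d15 was -0.18 (0.0225).

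*TIMP2*, which inhibits MMP2 and also takes part in its activation, had 494, 472 and 498 in untreated cells and 458, 518 and 510.1 on d1, so the d1 libraries overlapped the untreated ones. On d4 it had 1473, 1577 and 1437, and on d7 1811, 1647 and 1275. On d10 the libraries were back at 563, 603 and 588, just above the untreated range, and on d15 they had 2858, 2599 and 2732, the highest of the time course. The d20 libraries had 1579, 1591 and 1644. Relative to d0 the log2 fold change was 0.02 on d1 (not called, limma adjusted p = 0.845), 1.61 on d4, 1.68 on d7, 0.26 on d10 (under 2-fold, 0.00874), 2.48 on d15 and 1.72 on d20 (standard error 0.08 each). *TIMP2* rose by 1.59 from d1 to d4, fell by 1.42 from d7 to d10 and rose by 2.22 from d10 to d15 (limma adjusted p = 3.30e-12, 8.23e-12 and 1.13e-15). The levels on d4, d7 and d20 were not separated between neighbours (limma adjusted p = 0.555 and 0.694). Without the third d7 library, d7 was higher than d4 by 0.21 on the log2 scale (limma adjusted p = 0.00116), under the 2-fold limit.

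*TIMP3* encodes the inhibitor that binds to the extracellular matrix and also blocks several ADAM proteases. Its untreated libraries had 2035, 1833 and 2015, and its d1 libraries 4357, 4154 and 4372. On d4 they had 4859, 4949 and 4989.9, and on d7 7481, 7279 and 4609. On d10 the values were 2657, 2608 and 2639, on d15 6976, 7139 and 6999.5, and on d20 1955, 2048 and 2059, the last overlapping the untreated libraries. *TIMP3* was thus high on d1 to d7 and on d15, and nearer to the untreated level on d10 and d20. The log2 fold change from d0 was 1.13 on d1, 1.33 on d4, 1.69 on d7, 0.43 on d10 (under 2-fold, limma adjusted p = 0.00129), 1.84 on d15 and 0.04 on d20 (not called, 0.735), with a standard error of 0.11 each. It fell by 1.26 from d7 to d10, rose by 1.42 from d10 to d15 and fell by 1.80 from d15 to d20 (limma adjusted p = 1.39e-09, 7.76e-11 and 3.10e-12). Without the third d7 library the change on d7 was 1.91 and the step to d10 was -1.49. With equal library totals, the d1 change was 0.94, under the 2-fold limit.

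**Figure D2:**
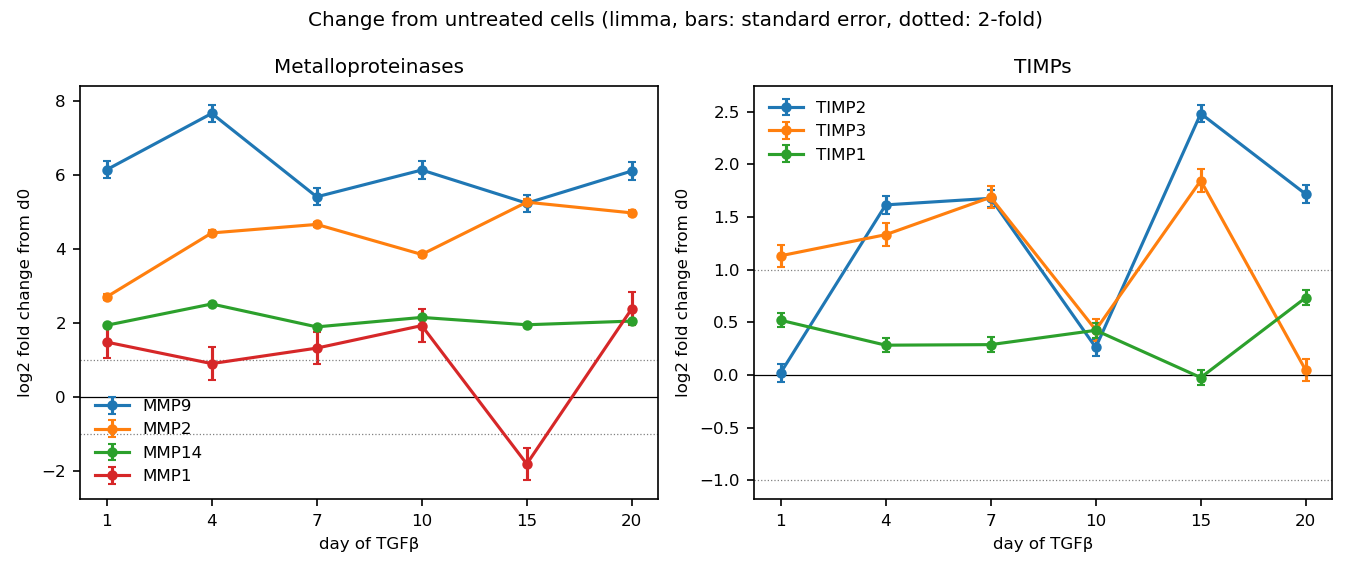
Log2 fold change from untreated cells (y axis) by day of TGFβ (x axis) for the 4 metalloproteinase and 3 TIMP genes tested, with bars of 1 standard error from limma and a dotted line at 2-fold. *MMP9* lay between 5.24 and 7.67 and *MMP14* between 1.89 and 2.51, whereas *TIMP2* and *TIMP3* dropped to 0.26 and 0.43 on d10 and *MMP1* to -1.82 on d15.

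Without the third d7 library the change from d0 on d7 was 4.97 for *MMP9*, 4.70 for *MMP2*, 1.88 for *MMP14*, 1.36 for *MMP1*, 0.16 for *TIMP1* and 1.82 for *TIMP2* on the log2 scale, so no member changed its call.

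Between neighbouring timepoints, 3 of the 7 members tested (*MMP2*, *MMP9* and *TIMP2*) were higher on d4 than on d1, where 4.19% of all genes tested were higher and 1.98% lower. From d4 to d7, 1 member (*MMP9*) was lower, beside 2.27% of all genes higher and 1.51% lower. From d7 to d10, 2 members (*TIMP2* and *TIMP3*) were lower, beside 3.63% higher and 9.09% lower. The step from d10 to d15 changed 4 members, with *MMP2*, *TIMP2* and *TIMP3* higher and *MMP1* lower, beside 12% of all genes higher and 10.2% lower. From d15 to d20, *MMP1* was higher and *TIMP3* lower, beside 7.55% higher and 7.43% lower.

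The proliferation genes *MKI67*, *TOP2A*, *PCNA*, *MCM2*, *CCNB1* and *CDK1* were followed beside the members, because their level varied along the course. Their summed value was 46678 to 48078 in the untreated libraries, 36135 to 37667 on d1, 27841 to 29139 on d4, 41059.5 to 42159.9 on d10, 15768 to 16109 on d15 and 45502 to 47184 on d20. On d7 the first 2 libraries had 33434 and 34251 and the third had 43004. All 6 of these genes were lower on d15 than in untreated cells and higher on d20 than on d15. The d15 libraries, with the lowest sums, had the highest *TIMP2* and *MMP2*, and all 3 had *MMP1* and *MMP10* at the floor. Floor values also occurred in untreated libraries, where the sums were high. The untreated library with a sum of 46678 had 3 reads of *MMP1* and 1 of *MMP10*. The untreated library with a sum of 48078 had 9 reads of *MMP1* and 1 of *MMP10*. Within d7, the library with the highest sum had the lowest *TIMP2* and *TIMP3* and the highest *MMP9* and *TIMP1*. The endothelial marker *KDR* was, like *TIMP2* and *TIMP3*, lower on d10 than on d7 and higher on d15 than on d10, but unlike *TIMP3* it was lower on d1 than on d0. Its means were 42.1 on d0, 5.41 on d1, 65.8 on d4, 157 on d7, 2.94 on d10, 263 on d15 and 13.5 on d20. The other endothelial markers did not follow it: *PECAM1* was highest in untreated cells (41.3), *VWF* stayed between 4.50 and 8.74, and *CDH5* was at the floor. The leukocyte marker sum, nearly all *CD68*, was 354 to 412 on d10 and 741 to 795 on d15. The basal epithelial marker sum was lowest on d10 (207247 to 209998) and next lowest on d20 (231615 to 232780). The first d7 library (534135) and the second (502206) were far above the third (299172). This sum was mostly *KRT5* and *KRT14*, and its genes did not move together. From d0 to d10 mean *KRT5* went from 224349 to 101276, *KRT14* from 72774 to 68590 and *TP63* from 4453 to 3632. Over the same days mean *ITGA6* went from 8586 to 25314.5 and *CDH3* from 9611 to 9947. The part of proliferation, of basal marker level or of *KDR*-expressing cells in these results was not tested.

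**Figure D3:**
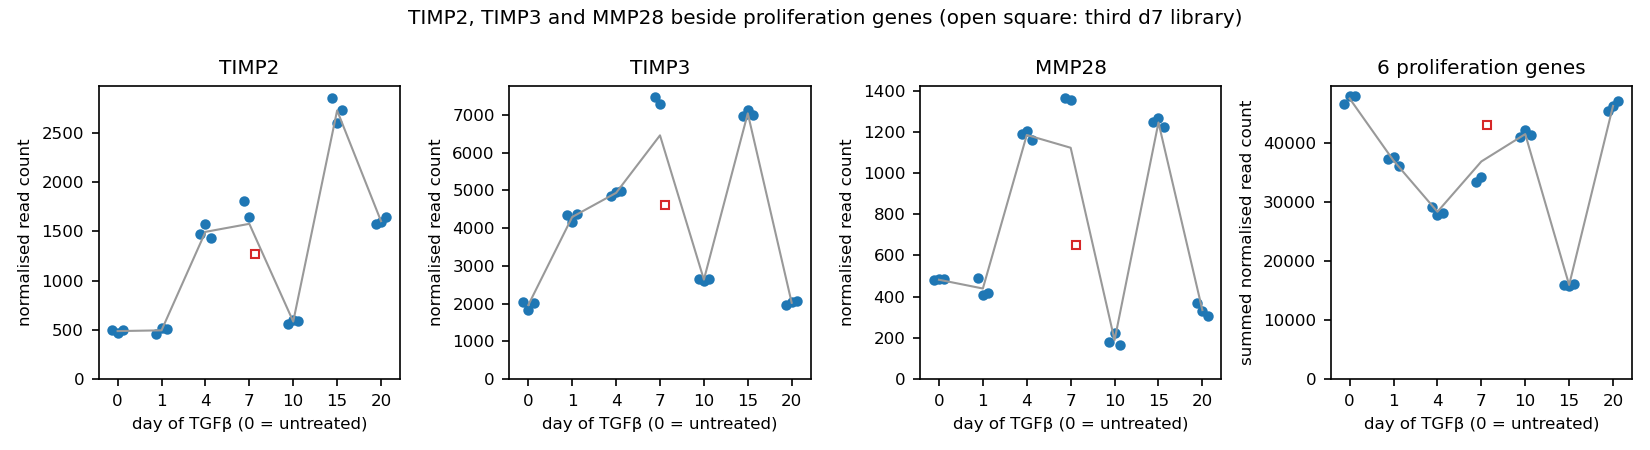
Normalised read counts of *TIMP2*, *TIMP3* and *MMP28* and the summed count of 6 proliferation genes (y axes, linear, starting at 0) in the 21 libraries by day of TGFβ (x axis). Points are libraries, lines join means and the open square is the third d7 library; the d15 libraries are highest or among the highest in the first 3 panels and lowest in the fourth (15768 to 16109).

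Levels of different genes were compared only after division by the length of the longest coding transcript in GENCODE v29, which need not be the transcript these cells use. Per kilobase, untreated cells had *TIMP1* (1734) and *MMP14* (1569) highest, followed by *TIMP3* (426) and *TIMP2* (134), while *MMP9* (17.04) and *MMP2* (16.2) were far below the inhibitors. From d1 on *MMP14* was highest, with 6015 per kilobase on d1, 8968 on d4 and 6507 on d20. On d4 *MMP9* reached 3537 per kilobase, above *TIMP1* (2109.8), *TIMP3* (1072) and *TIMP2* (409.7). On d15 *MMP2* (628) and *MMP9* (656) were below *TIMP2* (747), *TIMP3* (1529) and *TIMP1* (1705). On d1, d10 and d20 *MMP9* (1230.5, 1258 and 1201) was above *TIMP2* (136, 160 and 439) and *TIMP3* (933, 572 and 439). It was below *TIMP1* on those days (2485, 2326 and 2885). On d7 *MMP9* (817) was above *TIMP2* (432) only. *MMP2* was above *TIMP2* on d10 (235) and above *TIMP2* and *TIMP3* on d20 (513), and below all 3 TIMP genes otherwise. *MMP1*, *MMP3*, *MMP10* and *MMP13* stayed at 16.5 per kilobase or less on every day. These are transcript levels, and the balance of active enzyme and inhibitor was not measured.

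**Figure D4:**
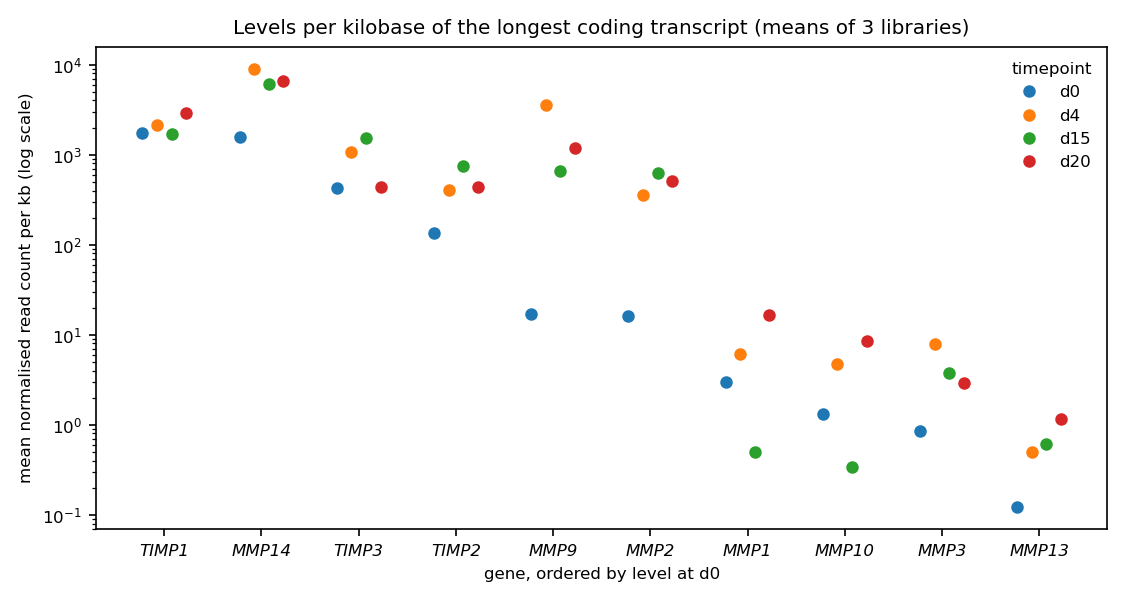
Mean normalised read count per kilobase (y axis, log scale) of the 10 members, ordered by their d0 level (x axis), on d0, d4, d15 and d20. Points are means of 3 libraries; *MMP9* and *MMP2* were at 17.04 and 16.2 on d0, far below the TIMP genes. On d4 *MMP9* (3537) was above all 3 TIMP genes and *MMP2* (352) below them, and on d15 both were below them. On d20 *MMP9* (1201) and *MMP2* (513) were above *TIMP2* and *TIMP3* (439 each) and below *TIMP1* (2885).

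The time course of each member that spanned at least 2-fold was compared with those of the 5227 tested genes that did so, by Pearson's r over the 7 timepoint means of log2 values. These values are a description over 7 points that share their libraries, with d0 far from the rest for several genes. For *MMP1* the far point was d15, with 3 reads in all. *TIMP1* spanned only 0.76 on the log2 scale and enters only the values among the members. *MMP2* was most like *SLIT3* (r = 0.999), *CCDC80* (0.991) and *FIBCD1* (0.986). *MMP14* was most like *PTPRK*, a receptor tyrosine phosphatase (0.997), *CORO2B* (0.995) and *FBLIM1* (0.994). For *MMP9*, the 3 closest were *BHLHE40*, *MED15* and *MMP14*, each with r = 0.992. *MMP1* was closest to *CFL1*, the actin-severing protein cofilin (0.969), *TUBB2A* (0.963) and *CSRP2* (0.962). *TIMP2* was closest to *SLC22A17* (0.995), *RNF213* (0.988) and *PLXDC2* (0.982), and *TIMP3* to *ACOT11* (0.988) and *SLC22A3* (0.965). Among the members, r was 0.99 for *MMP9* and *MMP14*, 0.89 for *MMP1* and *TIMP1*, 0.86 for *MMP2* and *MMP14*, 0.81 for *MMP2* and *TIMP2*, 0.57 for *TIMP2* and *TIMP3*, and -0.47 for *MMP1* and *TIMP3*.

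The genes that act on these enzymes were followed in the same way. Of 23 activators, cell-surface partners and other inhibitors of metalloproteinases, 18 were tested, and 7 were higher on d20 than on d0 while the other 11 were not called (median log2 fold change 0.74), where 7.51% of all genes tested were higher. *SERPINE2*, protease nexin 1, rose from 147 to 3679.5 (log2 fold change 4.64), and *THBS1*, the matricellular protein thrombospondin 1, from 7040.4 to 134301 (4.25). *ITGB3*, the β3 integrin chain, rose from 2.71 to 46.5 (3.69). The limma adjusted p of these genes was at most 6.17e-12. Of the 14 AP-1, ETS and RUNX factors, from families known to bind metalloproteinase promoters, all were tested, and 6 were higher and 1 lower on d20 (median 0.81). Among all genes tested, 7.51% were higher and 4.72% lower on that day. *JUN* rose from 528 to 3443 (log2 fold change 2.6995), *ETS1* from 2292 to 9779.8 (2.09) and *JUNB* from 1264 to 4365 (1.77). The epithelial ETS factor *ELF3* fell from 227 to 16.4, by 3.72 on the log2 scale. No binding was measured here.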

How the data were processed

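RNA sequencing of 21 HMLE libraries was analysed, 3 at each of 7 timepoints that the paper describes as biological triplicates. The p-values measure the spread between these libraries, and an effect shared by the 3 libraries of a day is not in it. Across tested genes, squared differences between mates averaged 1.37 to 2.89 times what counting error alone gives (chi-square per degree of freedom). For pairs with the third d7 library this was 47.8 and 52.3. The authors deposited a normalised signal per gene, which is reads divided by a size factor for each library and rounded to 2 decimals. The submitters' processing notes name STAR 2.7, Salmon 1.4 and hg19, with no role or order. Dividing by the step of each library gave whole reads for 100% of values within a tolerance of 0.006. Column names carry the timepoint but no replicate number, so libraries are numbered by file order within a timepoint. No libraries held identical values.

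Log2(value + 1) of the 13343 genes with a mean of at least 10 was fitted by limma 3.58.1 (R 4.3.3; all libraries in a single fit, one mean per timepoint, trended eBayes, Benjamini-Hochberg adjustment within each contrast). Fold changes on this scale understate those of low genes. Alternatives were a pseudocount of 10, no filter, equal library totals, quantile normalization, a fit of only the timepoints compared, edgeR 4.0.16 and DESeq2 1.42.0 on recovered reads, no minimum fold change and leaving out each library. The tests were checked on simulated data. Counting intervals of ratios are exact and cover counting error only.

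The members and gene lists were chosen with earlier results of these data known. Genes named are all members, up to 4 genes of each further list with the largest called change on d20, and the 3 genes closest in time course to each member whose means span at least 2-fold; some genes under this rule are not reported here. Genes named outside this rule (*MMP28*, *MMP15*, *KDR*, marker genes) were chosen after their values were seen or belong to a marker list. Sequences came from RefSeq (GRCh38.p14) and lengths from GENCODE v29. Gene coordinates in hg19 were not used here.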

Additional observations from a re-analysis of the deposited data

Results flagged for a closer look

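The change from untreated cells differed by at least 2-fold between treated days for 5 members, by limma's test of the difference itself over all genes, with 3 libraries a day. For *MMP14* and *TIMP1* the largest such differences were under 2-fold. They were -0.62 for d7 minus d4 (limma adjusted p = 3.39e-12) and 0.76 for d20 minus d15 (2.42e-09). For *MMP1* the change on d20 exceeded that on d15 by 4.20 on the log2 scale (adjusted p = 2.58e-08), with 3 reads in all on d15. For *MMP2* the change on d15 exceeded that on d1 by 2.56 (limma adjusted p = 4.00e-17), and for *TIMP2* the same difference was 2.46 (2.96e-16). For *MMP9* the change on d15 minus that on d4 was -2.43 (limma adjusted p = 1.91e-08), and for *TIMP3* the change on d20 minus that on d15 was -1.80 (3.10e-12). In each of the 5 differences the libraries of the days compared did not overlap. The days were picked as those with the largest called difference between treated days. The adjusted p and the lack of overlap therefore describe pairs picked for their size and are no separate support. The cause of these differences was not tested. Without the third d7 library the lowest change of *MMP9* was that on d7 (4.97, against 5.24 on d15), and the highest change of *TIMP3* was also that on d7 (1.91, against 1.84 on d15).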

How the results depend on the processing

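Of 308 recomputed counts of called members 293 stayed within 1.5 times the count reported, and of the recomputed member changes 973 held both sign and call, 9 lost a call, 5 gained one and 14 changed sign. With no minimum fold change, 7 members were higher on d10 than on d0, beside 4939 of all 13343 genes tested. On d4, 1 was lower than on d1, beside 4266 of all genes. On d7, 2 were higher and 2 lower than on d4, beside 3406 higher and 3406 lower among all genes. On d10, 2 were higher than on d7, beside 4833. On d15, 4 were lower than on d10, beside 5403. On d20, 4 were higher and 3 lower than on d15, beside 5031 higher and 4850 lower. With no filter on low values, 8 members were higher on d20 than on d0, beside 1335 of 19546 genes. In that fit 2 were lower on d15 than on d10, beside 1609 genes, and 2 were higher on d20 than on d15, beside 1284. These counts differ since *MMP3*, *MMP10* and *MMP13* then enter the test. With a pseudocount of 10, 0 members were lower on d15 than on d0, beside 994 of 13343 genes, since *MMP1* went to -0.51 on the log2 scale. Quantile normalization made 1 member, *MMP1*, higher on d10 than on d7, beside 688 of 13343 genes. Leaving out single libraries gave 0 to 1 members higher on d10 than on d7, the 1 being *MMP9* without the third d7 library, and 1 to 2 lower on d15 than on d10, the second being *MMP9* without the third d10 library.

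Sign changes were seen only for log2 differences that were not called. Those were *TIMP2* on d1 against d0 (-0.17 with equal totals, -0.0011 with quantile normalization, and -0.012 to 0.076 with a library left out), *TIMP3* on d20 against d0 (-0.16, -0.11, and -0.0037 to 0.072 in the same order) and *TIMP1* on d15 against d0 (-0.047 to 0.00088 with a library left out). Leaving out a library also gave -0.080 to 0.67 for *MMP1*, -0.12 to 0.092 for *TIMP1* and -0.045 to 0.21 for *TIMP2* on d7 against d4. The cause was not tested. *MMP1* on d1 and d7 lost its call with a pseudocount of 10 (0.78 and 0.67), and with quantile normalization *MMP1* on d7 (0.78, limma adjusted p = 0.0986) and *TIMP3* on d1 (0.97) lost theirs. With equal totals *TIMP2* and *TIMP3* on d10 against d0 were 0.03 and 0.20 (limma adjusted p = 0.712 and 0.089). No paired analysis was possible because no column name gives a replicate number. Depth limits *MMP1*, *MMP3*, *MMP10* and *MMP13*, which had at most 40 reads in any library.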

Other observations

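Of 17 further genes of the family, which include *TIMP4*, 8 passed the filter on low values. On d20, 3 of these were higher than on d0 while the other 5 were not called. Of all genes tested, 7.51% were then higher and 4.72% lower. *MMP19* had 17.8, 31.4 and 21.8 normalised reads in untreated cells and 176, 157 and 185 on d20 (log2 fold change 2.85, limma adjusted p = 1.44e-12). *MMP16*, which encodes another membrane-anchored enzyme, had 8.01, 5.94 and 4.95 in untreated cells, 0, 0.97 and 1.96 on d4 and 33.9, 36.8 and 40.2 on d20 (2.40, 2.92e-06). It was called lower than untreated cells on d4, on few reads, and higher on d20. *MMP17*, whose product is held in the membrane by a lipid anchor, rose from a mean of 63.5 to 165 (1.36, limma adjusted p = 9.65e-10).

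*MMP28*, which encodes epilysin and was picked after its values were seen, was, like *TIMP2* and *TIMP3*, lower on d10 than on d7 and higher on d15 than on d10. It had 479, 483 and 484 in untreated cells, 1190.5, 1204 and 1159 on d4, and 1362, 1356 and 649 on d7. It then had 179, 223 and 166 on d10, 1248, 1265 and 1222 on d15 and 368, 330.5 and 306 on d20, so that d10 lay below the untreated libraries without overlap. The log2 difference was -2.49 from d7 to d10, 2.72 from d10 to d15 and -1.90 from d15 to d20 (limma adjusted p = 1.20e-10, 7.53e-12 and 4.21e-09). *MMP15*, also picked after its values were seen, went from a mean of 127 on d7 to 26.2 on d10, 137 on d15 and 39.5 on d20.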
